A study of Mus musculus with 12 samples.

Results

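Primary mouse hepatocytes that were given liproxstatin-1 (Lip-1) and then FAC were compared with untreated control hepatocytes. The comparison rests on 6 of the 12 libraries of the series, the 3 titled liproxstatin-1 plus FAC (Lip-1+FAC below) and the 3 titled control, which were chosen by their titles. The labels describe Lip-1 as a scavenger of lipid reactive oxygen species and place the pretreatment on day 2 of culture. They do not spell out FAC, an abbreviation that commonly stands for ferric ammonium citrate, an iron salt, and they give no genotype or age in the text used here. The FAC libraries (3, FAC without pretreatment) and the MT+FAC libraries (3, the mitochondrial scavenger Mito-TEMPO and then FAC) entered the same fit, so they share its estimate of spread, and the FAC libraries also define the far-side genes below. No group received a scavenger without FAC, so the effect of Lip-1 on cells without FAC cannot be told apart from its effect on the response to FAC. Nothing in the labels says that the 3 libraries of a group came from separate cultures or animals, so p-values measure the spread between these libraries, which may be technical.

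Lip-1 traps the lipid radicals that carry peroxidation from one membrane lipid to the next, and it is widely used to block ferroptosis, a form of cell death driven by iron-dependent lipid peroxidation. Hepatocytes take up, store and export iron and set its release into blood through the hormone hepcidin. When oxidants or electrophiles reach them, the transcription factor NRF2 is released from its inhibitor KEAP1 and raises genes of glutathione synthesis, thioredoxin recycling and heme breakdown through a DNA motif called the antioxidant response element. Hepatocytes in culture also drift away from their adult state, with more cytoskeleton and glycolysis and less of the liver-specific programme.

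Messenger RNA was measured by RNA sequencing as read counts per gene. Of 55487 genes listed, 13535 had enough counts to be tested. Counts assigned to genes ranged from 23346252 to 26352195 in the control libraries and from 23893263 to 27996575 in the Lip-1+FAC libraries. Levels are given below as counts scaled to library size (CPM) in libraries 1, 2 and 3 of a group, and differences as log2 fold changes (Lip-1+FAC against control unless stated) with their standard errors (SE). An adjusted p is the Benjamini-Hochberg value over all genes tested from the quasi-likelihood test of edgeR, and a gene is said to have risen, fallen or been called when it is under 0.05. The identity of the cells was checked on hepatocyte markers. Of 15 tested, Alb (albumin) was the most abundant, at 9900, 9697 and 9277 CPM in control. Their summed level was 21990 to 22310 CPM in control and 17720 to 18880 CPM in Lip-1+FAC, and 13 fell and 1 rose. Of all genes tested 14.8% fell and 15.4% rose. Other liver cell types left small traces. Hemoglobin genes and 12 of 14 lymphocyte markers had no count in the 6 libraries. The 14 macrophage markers summed to 232.7 to 266.9 CPM in control and 126.3 to 153.9 CPM in Lip-1+FAC, nearly all of it from Cd68, and 2 of 12 tested fell, near the share of all genes. The 12 cholangiocyte markers went the other way, from 155.7 to 175.7 CPM up to 205.8 to 211.7 CPM, with 1 of 9 tested called higher and 3 called lower, and the one higher was Spp1. Without Spp1 the other 11 summed to 120.3 to 127.7 CPM in control and 100.8 to 111.8 CPM in Lip-1+FAC. The 14 stellate cell markers summed to 47 to 50.96 CPM in control and 30.45 to 35.46 CPM in Lip-1+FAC. Most of that came from Ecm1, Acta2 and Reln, the 3 of 9 tested that fell. The others tested were not called, with log2 values from -0.87 (Rgs5) to 0.60 (Pdgfrb). The 12 sinusoidal endothelial markers summed to 45.88 to 47.83 CPM in control and 37.64 to 40.28 CPM in Lip-1+FAC. Of 11 tested, Fcgr2b was called higher, and Stab2 and Bmp2 lower. The part of these shifts in the results below was not tested, and in bulk RNA fewer cells of a type and less RNA per cell cannot be told apart.

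Lip-1+FAC cells differed from control in many genes. Of the genes tested, 4089 were called against control, 30.2% of all, with 2081 higher (15.4%) and 2008 lower (14.8%). A fit of the control and Lip-1+FAC libraries alone called 3605. Most of the calls were small. A change of at least 1 on the log2 scale was reached by 199 genes upwards (1.47% of genes tested) and 354 downwards (2.62%), together 4.09%, and the median over all genes was -0.02. The called genes were of 3 main kinds. The first kind, 1693 genes (12.5% of those tested), had also been called on the same side in FAC against control, 986 higher (7.28%) and 707 lower (5.22%). A second, 1418 genes (10.5%), was called in Lip-1+FAC against both control and FAC but not in FAC against control, 623 higher (4.6%) and 795 lower (5.87%). The remaining kind, 478 genes (3.53%), lay on the far side of control, which means that FAC cells were called on one side of control and Lip-1+FAC cells on the other. A further 500 genes (3.69%) were called in Lip-1+FAC against control only. FAC against control gave 4960 calls (36.6%), with 17.5% of genes higher and 19.1% lower, and Lip-1+FAC against FAC gave 5397 (39.9%). Lip-1+FAC against control and FAC against control use the same control libraries, so a control library that is high or low by chance moves a gene the same way in both.

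**Figure D1:**
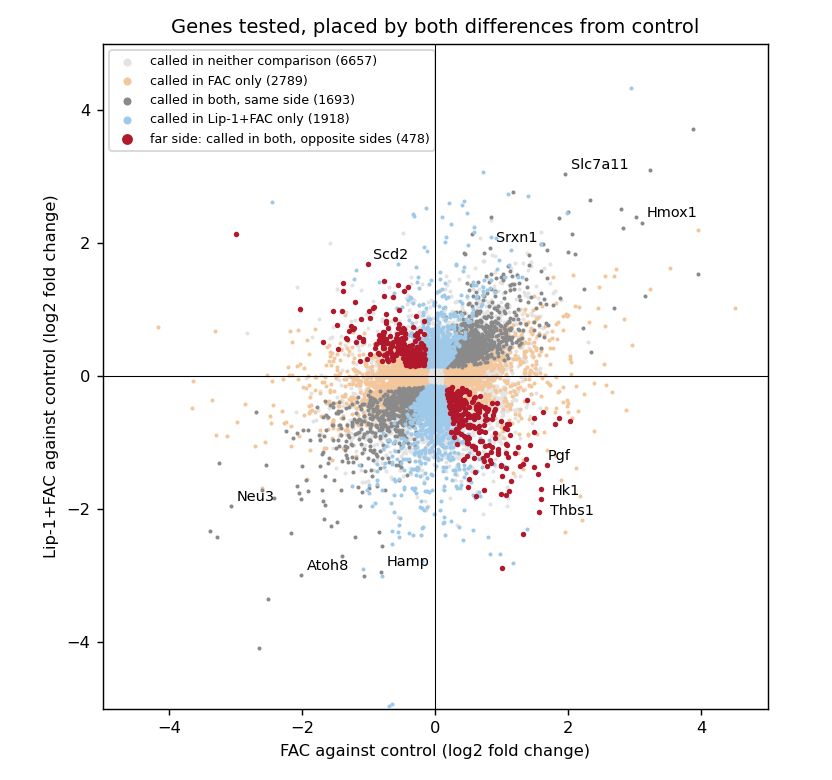
Each point is 1 of the genes tested, placed by its log2 fold change in FAC against control (x axis) and in Lip-1+FAC against control (y axis), and coloured by the comparisons in which it was called. The 478 far-side genes are the red points at the upper left and lower right, and 1 gene lies outside the axes.

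Slc7a11 showed the largest rise among well-expressed protein-coding genes. It encodes the transporter that brings cystine into the cell for glutathione synthesis and lies on chromosome 3 from 49892526 to 50443614 (GRCm38, minus strand). Its level was 12.3, 12.9 and 14.9 CPM in control, 49.5, 50.5 and 55.5 CPM in FAC and 107, 115 and 108 CPM in Lip-1+FAC. The groups did not overlap, and the Lip-1+FAC level was 8.24 times control (log2 3.04, SE 0.09, adjusted p = 1.12e-13). Hmox1, on chromosome 8 from 75093621 to 75100589, encodes heme oxygenase 1, which opens the heme ring and frees its iron. It rose from 341, 284 and 270 CPM in control to 1442, 1458 and 1535 CPM in Lip-1+FAC (log2 2.31, SE 0.09, adjusted p = 5.41e-11), whereas FAC libraries held 2595, 2580 and 2504 CPM. Lip-1+FAC thus lay above FAC for Slc7a11 and between control and FAC for Hmox1. Gsta2, a glutathione transferase, rose from 8.97, 8.48 and 8.68 CPM to 43.5, 38.1 and 33.4 CPM, with 12.9, 11.9 and 13.5 CPM in FAC. Its transcript shares over 97% identity with Gsta1 and 2 other annotated genes, and reads from these copies cannot be told apart with certainty. Cbr3, a carbonyl reductase, rose from 1.58, 1.69 and 1.97 CPM to 14.7, 11.9 and 9.22 CPM. Cachd1, a membrane protein related to calcium channel subunits, rose from 30.8, 35.9 and 29.2 CPM to 148.3, 177 and 176 CPM, not far above the 98.5 to 128 CPM of FAC. The other large rises were Cyp4f39 (log2 2.64, SE 0.28), Snhg11 (2.40, SE 0.25) and the cell cycle inhibitor Cdkn2b (1.99, SE 0.18), all at 15.3 CPM or less in every library.

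The largest falls included both peptide hormones and regulators of the liver. Atoh8, a transcription factor that supports hepcidin expression, lies on chromosome 6 from 72206177 to 72235577. It fell from 48.5, 40.5 and 44.9 CPM in control to 5.28, 5.22 and 6.39 CPM in Lip-1+FAC (log2 -2.99, SE 0.13, adjusted p = 3.29e-11), with 9.17, 10.8 and 13.2 CPM in FAC. Hamp, which encodes hepcidin itself, fell from 46.1, 30.9 and 55.9 CPM to 5.75, 6.18 and 5.33 CPM (log2 -2.94, SE 0.27, adjusted p = 1.28e-05). FAC libraries held 24.5, 17.8 and 33.6 CPM of Hamp and overlapped the lowest control library. Leap2, a liver peptide that blocks the ghrelin receptor, fell from 75.6, 54.1 and 78.8 CPM to 11.5, 14.1 and 10 CPM. Pck1, which commits carbon to glucose synthesis, fell from 18, 25.2 and 18.7 CPM to 4.04, 3.54 and 4.02 CPM. Rgs2, a brake on G protein signalling, fell from 47.7, 35.8 and 38.1 CPM to 9.13, 10.8 and 11.1 CPM, while FAC libraries stayed at 32.6 to 38.2 CPM. Neu3, a membrane sialidase, was the one of these 8 whose fall was smaller than in FAC, from 20.3, 18.4 and 16.2 CPM in control to 5.39, 3.86 and 4.99 CPM, with 1.9 to 2.47 CPM in FAC. Pmaip1, a promoter of apoptosis, fell by 1.87 on the log2 scale (SE 0.22). Thbs1, the last of the 8, is a far-side gene and is described with those. In none of the 16 largest changes did a Lip-1+FAC library overlap a control library, which the rule for naming them required.

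**Figure D2:**
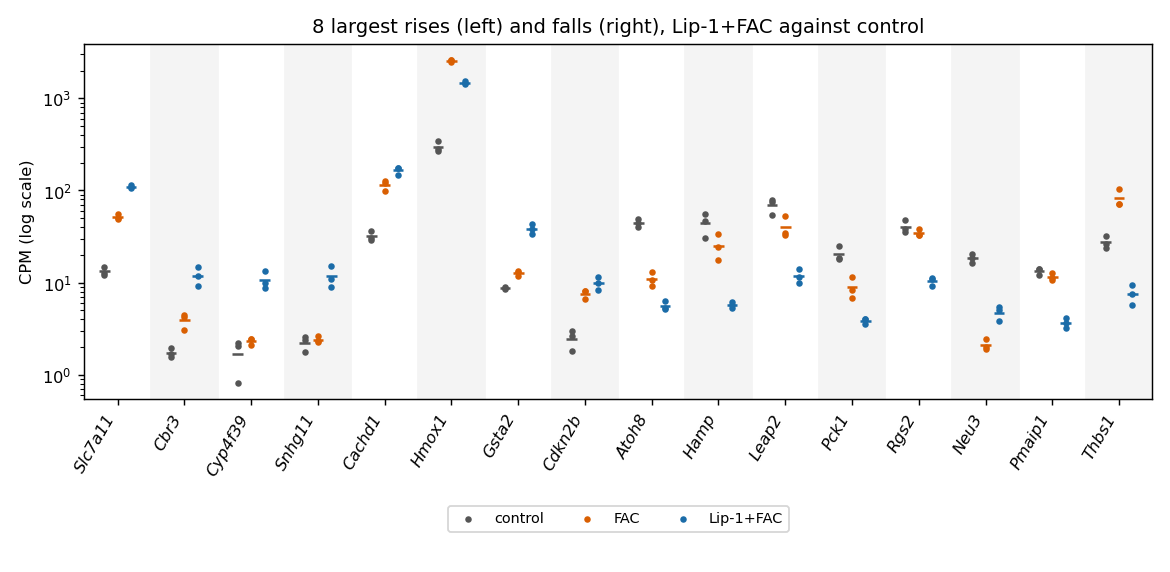
CPM on a log axis of the 8 largest rises and the 8 largest falls in Lip-1+FAC against control, with 1 point per library and a bar at the mean of each group of 3. Slc7a11, Gsta2 and Cbr3 are highest in Lip-1+FAC, Hmox1 is highest in FAC, and Thbs1 is above control in FAC and below it in Lip-1+FAC.

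NRF2 target genes rose together. Of 41 listed and tested, 34 were called higher and 1 lower, with a median log2 fold change of 0.90, against 15.4% and 14.8% and a median of -0.02 over all genes tested. In FAC against the same control, 26 of the 41 were called higher, with a median of 0.43. Srxn1, the enzyme that repairs over-oxidised peroxiredoxins, rose from 499, 509 and 539 CPM to 2034, 1893 and 1996 CPM (log2 1.94, SE 0.06). FAC libraries held 878, 910 and 959 CPM, so each Lip-1+FAC library had more than any FAC library. Nqo1, a quinone reductase, rose from 7.01, 10.9 and 9.35 CPM to 32.1, 32.5 and 34 CPM, with 11.9 to 12.7 CPM in FAC. Txnrd1, which recycles thioredoxin, rose from 679, 692 and 654 CPM to 1451, 1436 and 1587 CPM, with 1042 to 1145 CPM in FAC. Gclm, the regulatory subunit of the enzyme that starts glutathione synthesis, rose from 343, 336 and 342 CPM to 660, 674 and 660 CPM, and its catalytic partner Gclc by 0.79 on the log2 scale (SE 0.05). Gss, which completes glutathione, was called higher in Lip-1+FAC (0.87, SE 0.12) and not in FAC (-0.12, adjusted p = 0.47). The list of cystine uptake and glutathione metabolism was mixed, with 10 of 25 genes higher and 8 lower (median 0.13). The number lower was 5 with offsets for GC content and exon length in the fit. Export pumps for glutathione conjugates were among the NRF2 targets, with Abcc2 at 114, 119 and 105 CPM in control and 381, 404 and 438 CPM in Lip-1+FAC. Gstm3, Gsta3 and Ephx1 were far-side genes, above control here and below it in FAC. Txn1 (log2 0.00) and Ftl1 (0.23, SE 0.27), which both belong to the list, were not called, and Ftl1 libraries spread from 808 to 1550 CPM in Lip-1+FAC. Ftl1 was called higher when the stranded columns were summed (0.35). An annotated copy of 99.56% identity covers 910 of its 968 bases, so its counts are less certain.

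The 2 promoter sequences that follow show the antioxidant response element in genes of this group. The motif was searched as TGACNNNGC on both strands of RefSeq promoter windows (GRCm38.p6), which run from 250 bases before to 50 after an annotated start. It stood in a window of 12 of the 29 NRF2 targets called higher that could be matched to windows (41.4%), against 17% of the 9869 matched genes tested and 12.4% of all windows. Over all 36 matched members of the list, called or not, the share was 36.1%. The match is a description of letters and not evidence of binding. Capitals mark the match, which in both genes reads on the opposite strand, starting 134 bases before the start in Gclm (chr3:122245307-122245606, plus strand) and 92 bases before it in Txnrd1 (chr10:82858956-82859255, plus strand).
Gclm: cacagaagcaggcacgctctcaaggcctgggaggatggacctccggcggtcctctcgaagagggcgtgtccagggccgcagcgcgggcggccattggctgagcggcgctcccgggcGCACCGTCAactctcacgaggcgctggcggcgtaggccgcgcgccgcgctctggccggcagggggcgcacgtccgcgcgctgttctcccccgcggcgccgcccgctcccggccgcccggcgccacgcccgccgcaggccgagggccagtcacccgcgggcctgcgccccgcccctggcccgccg
Txnrd1: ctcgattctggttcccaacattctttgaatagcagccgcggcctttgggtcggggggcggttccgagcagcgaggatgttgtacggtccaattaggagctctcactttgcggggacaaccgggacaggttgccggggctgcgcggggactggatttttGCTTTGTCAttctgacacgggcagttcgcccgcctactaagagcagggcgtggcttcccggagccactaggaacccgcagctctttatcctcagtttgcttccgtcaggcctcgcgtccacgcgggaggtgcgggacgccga

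Iron genes shifted on both the uptake and the export side. Tfrc, the transferrin receptor that brings iron in, fell from 74, 65.2 and 59.6 CPM to 18.7, 19.1 and 23.2 CPM (log2 -1.71, SE 0.12, adjusted p = 1.74e-08), and FAC libraries held 20.2 to 27.8 CPM. Slc40a1 (ferroportin), the exporter, rose from 606, 592 and 611 CPM to 1447, 1511 and 1488 CPM (log2 1.30, SE 0.05), with 1214 to 1361 CPM in FAC. Between Lip-1+FAC and FAC, Tfrc was not called (log2 -0.28, adjusted p = 0.0673) and Slc40a1 was slightly higher in Lip-1+FAC (0.18, adjusted p = 0.013). Slc39a14, which takes up iron not bound to transferrin, fell by 0.83 (SE 0.07). Id1, a target of the BMP signal that also drives hepcidin, fell from 7.52, 6.34 and 7.22 CPM to 1.49, 1.07 and 1.86 CPM and was not called in FAC (-0.18, adjusted p = 0.52). Bmp6, a ligand of that signal, was called higher (0.59). Bmp2, another BMP ligand, was called lower (-0.96, adjusted p = 0.0489). It was at 1.223 to 2.251 CPM in control and 0.8733 to 0.9727 CPM in Lip-1+FAC. Fth1, the ferritin heavy chain, rose by 0.24 (SE 0.07, adjusted p = 0.0157), a call lost in 3 of 20 alternatives to the fit. Of 29 cellular iron genes tested, 9 rose and 7 fell (median 0.11, or 0.03 without Lip-1+FAC 1 and 0.17 without Lip-1+FAC 2). In the heme list 9 of 19 rose and 3 fell, or 1 without control 3. Of all genes tested 15.4% rose and 14.8% fell. The heme importer Slc48a1 rose from 298, 295 and 311 CPM to 650, 629 and 597 CPM. Alas1, which starts heme synthesis, was a far-side gene, with 482, 483 and 495 CPM in control, 341, 407 and 365 CPM in FAC and 562, 555 and 569 CPM in Lip-1+FAC.

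Genes named for ferroptosis itself moved in no common direction, with 7 of 25 called higher and 7 lower (15.4% and 14.8% of all genes tested), and the sign of the median (-0.08) changed in 3 alternatives. Without control 3 the number lower was 4. Gpx4, which reduces lipid hydroperoxides in membranes, was at 362, 373 and 412 CPM in control and 448, 429 and 374 CPM in Lip-1+FAC, and the difference was not called (0.12, SE 0.07, adjusted p = 0.172). It was called higher when the fit held an offset for the GC content and exon length of each gene (GC and length offsets, 0.38) and without Lip-1+FAC 3 (0.20). An annotated copy of 99.727% identity covers 733 of the 995 bases of Gpx4, so its counts are less certain. Gch1, which makes the antioxidant cofactor tetrahydrobiopterin, rose from 247, 239 and 282 CPM to 428, 426 and 413 CPM. Acsl4, which loads polyunsaturated fatty acids into membrane lipids, was called higher by 0.25 (SE 0.07), but the call was lost with GC and length offsets (0.15). Chac1, a glutathione-degrading enzyme often read as a mark of ferroptosis, was 32, 33.2 and 39.8 CPM in control, 64.3, 68 and 59.7 CPM in FAC and 40.6, 37.8 and 37.9 CPM in Lip-1+FAC. It was called in FAC and not in Lip-1+FAC (0.15, adjusted p = 0.23), but was called higher in Lip-1+FAC with the offsets (0.39) and without control 3 (0.25). The FAC and Lip-1+FAC libraries of Chac1 did not overlap.

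The far-side genes divided into 244 above control in Lip-1+FAC (1.8% of genes tested) and 234 below (1.73%). They were chosen by both contrasts, so these values describe the choice and carry no test. The genes below control went further, with a median log2 fold change of -0.61 in Lip-1+FAC, whereas those above had a median of 0.38. A change of at least 1 in Lip-1+FAC was reached by 56 of the 234 and by 15 of the 244, and in both comparisons by 22 and 6. Almost all were protein-coding, 241 and 229. In 229 of the genes above control and 209 of those below, neither the FAC nor the Lip-1+FAC libraries overlapped the control libraries. Over all genes tested, the Lip-1+FAC and control libraries did not overlap in 43.3%, and nothing is read from the higher share here because the same contrasts chose the genes. The threshold leaves near neighbours on both sides. Nt5c2 and Hsd17b13 (adjusted p = 0.0494 for both in Lip-1+FAC against control) and Abca8b (0.049 in FAC against control) were just inside. P4ha2 and Pim3, at 0.051 in FAC against control, and Il15ra, at 0.0508 in Lip-1+FAC against control, were just outside. The median share of G and C in the exons was 47.42% in the genes above control and 52.17% in those below, with 49.36% over all genes tested. Over all called genes it was 46.82% in those higher and 52.02% in those lower, whose median exon lengths were 6012 and 3182 bases. With GC and length offsets, 517 far-side genes were found, of which 338 were among the 478.

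Scd2 was among the far-side genes furthest above control. It encodes a stearoyl-CoA desaturase, which puts the first double bond into fatty acids, and lies on chromosome 19 from 44293674 to 44306864. Control libraries held 10.9, 13.2 and 13.1 CPM, FAC libraries 5.63, 6.47 and 6.26 CPM and Lip-1+FAC libraries 40.4, 38.9 and 40.9 CPM. The Lip-1+FAC level was 3.22 times control (log2 1.69, SE 0.10), and no library of one group reached the range of another. Scd1, the main desaturase of adult liver, was over 1000 CPM in every library and was not called (0.25, SE 0.11, adjusted p = 0.0997), although 6 of 20 alternatives called it higher. A stretch of 623 of the 5455 bases of the Scd2 transcript matches Scd1 at 95.506% identity, so a small part of the Scd2 reads could come from Scd1. Slc22a27, an organic anion transporter, was 4.83, 5.96 and 5.68 CPM in control, 1.94, 2.95 and 2.02 CPM in FAC and 13.6, 11.3 and 10.7 CPM in Lip-1+FAC. It is 96.839% identical to Slc22a29 over most of its length, and its counts are uncertain for that reason. Serpind1, which encodes the thrombin inhibitor heparin cofactor II, was 11.8, 14.2 and 12.7 CPM in control, 4.82, 5.52 and 4.12 CPM in FAC and 28.4, 22.6 and 26.1 CPM in Lip-1+FAC. Cyp2c38, a cytochrome P450, was 24.1, 30.8 and 30.2 CPM, then 12.3, 10.7 and 6.1 CPM, then 63.3, 52.8 and 52.6 CPM in the same order. Pbld2 (log2 1.04, SE 0.14) and the fatty acid-activating enzyme Acsm5 (0.86, SE 0.19) followed the same order of groups. Cd36, a fatty acid uptake receptor, was 7.43, 14 and 11.6 CPM in control, 8, 7.6 and 6.82 CPM in FAC and 29.4, 29 and 27.6 CPM in Lip-1+FAC, and here the control and FAC libraries overlapped although the gene was called on the far side.

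Mpeg1 and Sirpa, which macrophages also express, were far-side genes above control. Mpeg1, a pore-forming protein, was 12, 18.2 and 18.3 CPM in control, 9.21, 8.66 and 6.5 CPM in FAC and 30.9, 29.3 and 29.2 CPM in Lip-1+FAC. Sirpa, the receptor for the CD47 signal, was 8.29, 11.8 and 7.5 CPM, then 4.31, 5.94 and 3.23 CPM, then 20, 16.8 and 18.1 CPM. Of the 12 macrophage markers tested none was called higher, and C1qb (log2 -0.80) and Cd68 (-0.86) were called lower. Of the other 10, Adgre1 (0.32), Vsig4 (0.31), Marco (0.38), Cd5l (0.48), Lyz2 (0.33) and Csf1r (0.05) had positive values, and Clec4f (-0.27), C1qa (-0.90), C1qc (-0.60) and Tyrobp (-0.25) negative ones. Adgre1, at 0.513 to 0.8544 CPM in control and 0.8579 to 0.946 CPM in Lip-1+FAC, did not overlap between the groups, and C1qa did not either, at 0.9471 to 1.275 CPM in control and 0.296 to 0.7641 CPM in Lip-1+FAC. The part of macrophage RNA in the Mpeg1 and Sirpa values was not tested.

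Thbs1 and Hk1 were the far-side genes furthest below control by the ranking used. Thbs1 (thrombospondin 1, a matrix protein, chromosome 2 from 118111876 to 118127133) was 32.3, 26.1 and 23.5 CPM in control, 72.2, 70.6 and 103 CPM in FAC and 5.79, 9.33 and 7.61 CPM in Lip-1+FAC (log2 -1.85, SE 0.31, adjusted p = 0.00171). Hk1, a hexokinase that is low in adult hepatocytes (chromosome 10 from 62268855 to 62379908), was 7.73, 5.7 and 6.43 CPM, then 15.5, 17.1 and 27.2 CPM, then 1.67, 1.93 and 2.54 CPM (log2 -1.70, SE 0.26). Pgf, a growth factor for blood vessels, was 122, 102 and 105 CPM in control, 308, 291 and 367 CPM in FAC and 31.8, 42.4 and 44.9 CPM in Lip-1+FAC. Akap12, a scaffold for protein kinases, was 68.5, 67.4 and 58.2 CPM, then 200, 200 and 222 CPM, then 17.7, 27.2 and 32.6 CPM. In each of these 4 genes the FAC libraries were all above and the Lip-1+FAC libraries all below the control range. Krt19 and Krt17, keratins of bile duct and other epithelia, fell by 1.32 (SE 0.27) and 1.35 (SE 0.32) on the log2 scale, both from under 6 CPM. Ccn2, a matrix-associated YAP target, was 315, 304 and 345 CPM in control, 761, 749 and 710 CPM in FAC and 139, 156 and 140 CPM in Lip-1+FAC. Another annotated gene overlaps 23.24% of its exons, so its counts are less certain. Cyp2s1 fell from 11.6, 13.8 and 11.8 CPM to 2.29, 3.97 and 5.03 CPM. Relt and Espn reached lower log2 values (-2.88 and -2.37) at low levels and were picked out after their values were seen.

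**Figure D3:**
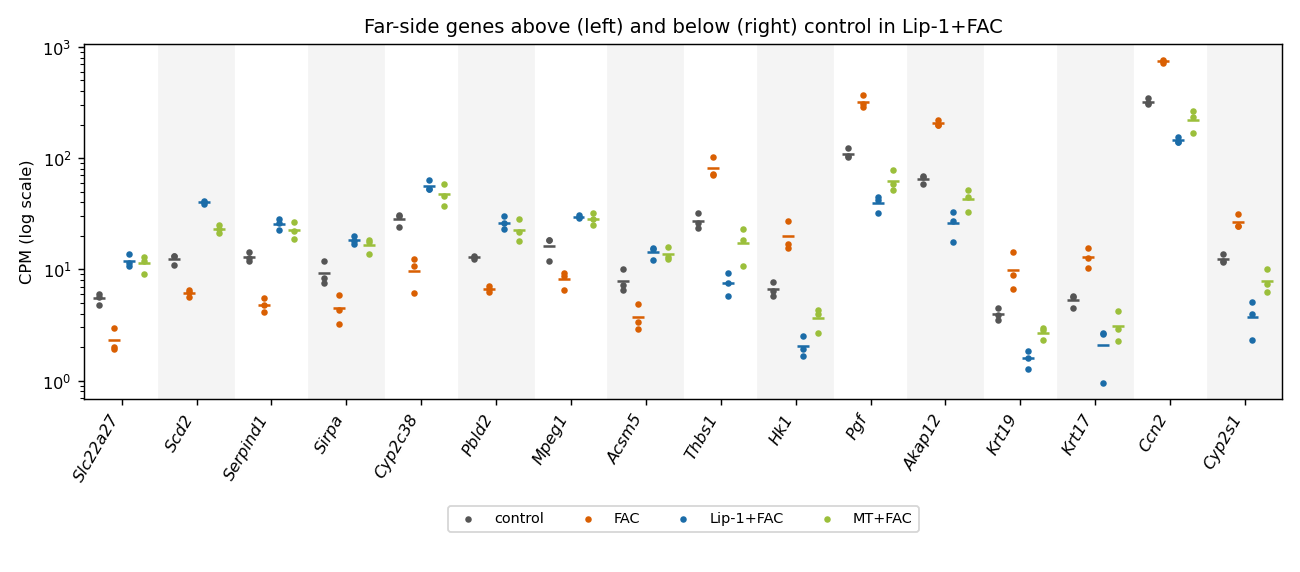
CPM on a log axis of the 16 far-side genes ranked by the smaller of their 2 differences from control, with 1 point per library and a bar at each group mean. FAC libraries lie below and Lip-1+FAC libraries above control for the 8 genes on the left, and the order is the opposite for the 8 on the right, with MT+FAC on the Lip-1+FAC side of control or near it.

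Cholesterol synthesis was the list with the most far-side genes above control, with 11 of 28 members. It builds sterols from acetyl-CoA, and most of its enzymes are driven by the transcription factor SREBP2. Of the 28 tested, 20 rose and 2 fell in Lip-1+FAC (median 0.41, against -0.02 over all genes), while in FAC the median was -0.24. Of all genes tested 15.4% rose, 14.8% fell and 1.8% were far-side genes above control. Hmgcs1, which makes HMG-CoA, was 193, 219 and 240 CPM in control, 149.1, 140 and 157 CPM in FAC and 375, 382 and 368 CPM in Lip-1+FAC (log2 0.79, SE 0.07, adjusted p = 2.7e-07). Further down the path, Mvd (log2 0.57), Idi1 (0.93), Fdft1 (0.51), Lss (0.35), Cyp51 (0.66), Nsdhl (0.40), Hsd17b7 (0.35) and Dhcr7 (0.54) were all far-side genes. Idi1 shares 684 bases with an identical annotated copy. Sqle, the second control point, was not called (0.10, SE 0.06), and Ebp and Tm7sf2 fell by 0.34 and 0.31. Insig1, the brake on SREBP2 processing, rose from 135, 140.8 and 119 CPM to 232, 232 and 251.4 CPM. In fatty acid synthesis, Fasn rose by 0.91 (SE 0.18), while Fads2 fell by 0.71 (SE 0.11). Over the 26 lipogenesis genes 9 rose and 8 fell, and the median (-0.02) changed sign in 4 alternatives. The number lower was 5 with GC and length offsets and 4 without control 3.

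The promoter of Hmgcs1 is shown for its sterol element, the site through which SREBP2 is known to act on this gene. The element was searched as TCACNCCAC on both strands. It stood in 1 of the 14 matched cholesterol genes called higher (7.14%) and in 5% of the 20 matched members of the list, against 1.48% of matched genes tested. The capitals mark it on the same strand, starting 137 bases before the start (chr13:119690101-119690400, plus strand). Another annotated gene overlaps 12.12% of the Hmgcs1 exons.
Hmgcs1: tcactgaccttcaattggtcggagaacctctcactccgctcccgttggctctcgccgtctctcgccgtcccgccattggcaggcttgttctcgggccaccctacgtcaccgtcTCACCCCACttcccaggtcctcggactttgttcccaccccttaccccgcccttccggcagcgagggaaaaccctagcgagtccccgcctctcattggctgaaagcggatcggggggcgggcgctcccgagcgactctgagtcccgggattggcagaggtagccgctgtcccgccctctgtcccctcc

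Glycolysis was the counterpart below control. None of its 25 tested genes rose, 18 fell, and 10 were far-side genes (median -0.56 in Lip-1+FAC and 0.21 in FAC). Of all genes tested 15.4% rose, 14.8% fell and 1.73% were far-side genes below control. The fall ran from the entry of glucose to the exit of lactate. Slc2a1 (GLUT1), the glucose transporter of dividing and dedifferentiated cells, was 198, 150 and 174 CPM in control, 310, 324 and 336 CPM in FAC and 81.3, 102 and 92.3 CPM in Lip-1+FAC (log2 -0.92, SE 0.12, adjusted p = 7.13e-05). Hk2 was 3.72, 3.45 and 3.75 CPM, then 7.75, 9.98 and 10.5 CPM, then 1.09, 1.97 and 1.52 CPM. Pkm, the pyruvate kinase of fetal and proliferating cells, fell by 0.75 (SE 0.11), and a processed copy with 98.368% identity makes its counts less certain. Slc16a3, a lactate exporter, was 98.1, 76.3 and 81.9 CPM in control, 112, 130 and 146.5 CPM in FAC and 22.5, 37.4 and 34.6 CPM in Lip-1+FAC. An annotated copy matches 997 of the 1815 bases of Ldha, which turns pyruvate into lactate, at 95.888% identity. Ldha fell from 7941, 6760 and 7115 CPM to 3645, 3985 and 4217 CPM (log2 -0.88, SE 0.08, adjusted p = 1.73e-07), and FAC libraries, at 6957 to 7888 CPM, lay within the control range. Pfkfb3, which raises the activator of phosphofructokinase, fell from 94.1, 84.8 and 78.8 CPM to 26.6, 31.2 and 34.4 CPM and was likewise not called in FAC (-0.05, adjusted p = 0.73). The smallest of the called falls in the central steps were those of Gpi1 (-0.31), Aldoa (-0.37), Eno1 and Gapdh (both -0.44). Slc2a2, the glucose transporter of adult liver, was not called (log2 -0.30, adjusted p = 0.318).

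**Figure D4:**
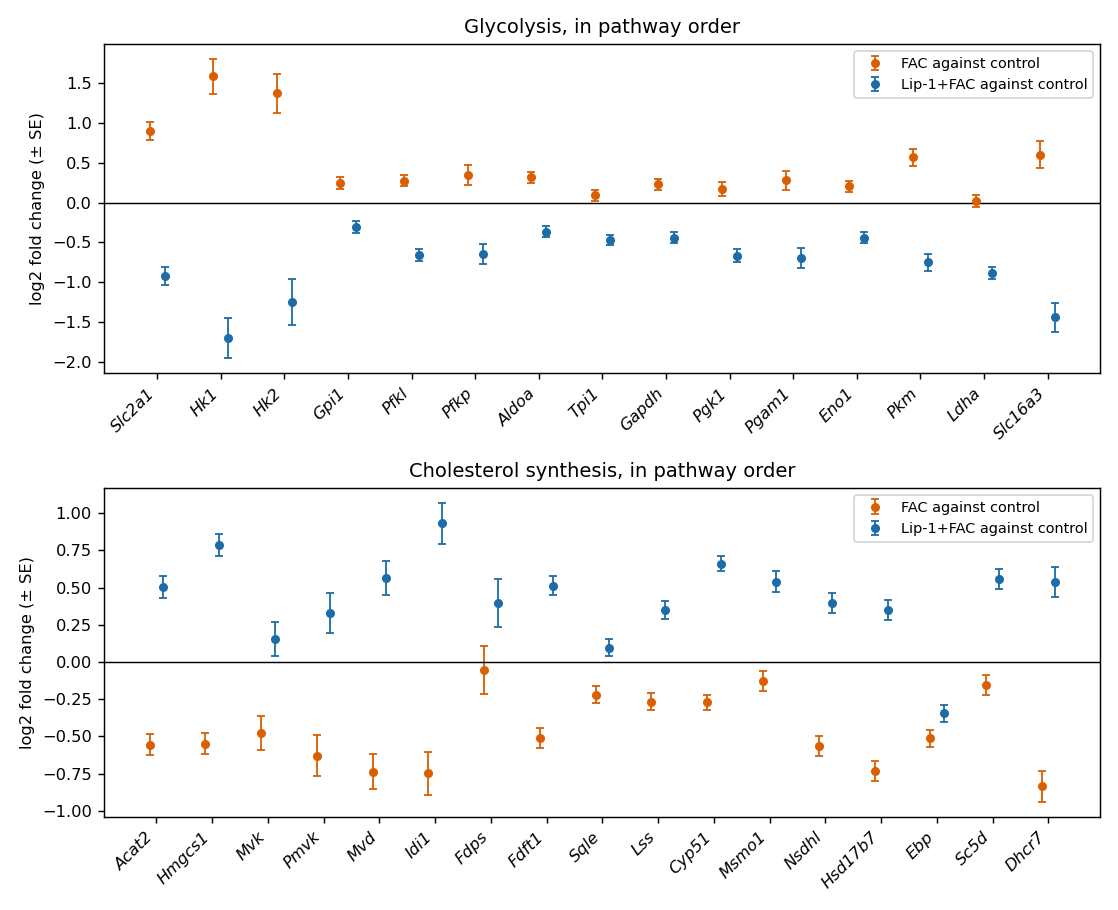
Log2 fold changes with their SE for FAC (orange) and Lip-1+FAC (blue) against the same 3 control libraries, with genes in the order of each pathway from left to right. In glycolysis the Lip-1+FAC values are all below 0, and among the cholesterol synthesis genes drawn all but that of Ebp are above 0.

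Targets of hypoxia-inducible factor (HIF), which needs an iron-dependent hydroxylase to be degraded, overlapped this group and fell with it. Of 24 tested, 18 fell and 1 rose (median -0.67), and 8 were far-side genes, against 14.8%, 15.4% and 1.73% of all genes tested. Vegfa, the vascular growth factor, was 385, 299 and 273 CPM in control, 433, 495 and 497 CPM in FAC and 189, 202 and 222 CPM in Lip-1+FAC. Ankrd37 fell from 15.2, 8.25 and 11.4 CPM to 3.89, 5.33 and 4.23 CPM, with FAC at 11.5 to 13.8 CPM. Bnip3 (log2 -1.06), Adm (-1.04), Egln3 (-1.09) and Pdk1 (-0.73) fell too, and Epo fell by 2.71 (SE 0.46) from under 2 CPM. The 1 member that rose was Hif1a itself (0.24). The HIF and glycolysis lists share Slc2a1, Ldha, Pfkfb3 and Pfkfb4 and are not separate evidence.

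The core of the hypoxia response element, ACGTG, is marked in the promoters of Ldha and Slc2a1 because both fell strongly and represent the 2 patterns, not called in FAC and far-side. The letters stood on either strand in 10 of 14 matched HIF targets called lower (71.4%) and in 12 of 18 glycolysis genes called lower (66.7%), against 29.5% of matched genes tested. Over all matched members, called or not, the shares were 68.4% and 62.5%, so nothing is read from them about the fall. Genes can have several windows, and a gene counts once if any of them holds the motif. The 14 HIF targets had 22 windows and the 18 glycolysis genes 30, against 12601 for the 9869 matched genes tested. Of all windows 19.6% held the letters. In Ldha (chr7:46845554-46845853, plus strand) the capitals begin 145, 48 and 34 bases before the start, where the first and second stretches hold the motif on both strands. In Slc2a1 (chr4:119108495-119108794, plus strand) the match begins 36 bases before the start.
Ldha: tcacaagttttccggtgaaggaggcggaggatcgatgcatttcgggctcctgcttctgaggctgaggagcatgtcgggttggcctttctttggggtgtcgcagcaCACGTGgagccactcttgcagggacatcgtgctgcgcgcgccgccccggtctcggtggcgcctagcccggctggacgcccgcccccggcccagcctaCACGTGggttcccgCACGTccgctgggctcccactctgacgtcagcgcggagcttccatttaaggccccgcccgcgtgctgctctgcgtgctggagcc
Slc2a1: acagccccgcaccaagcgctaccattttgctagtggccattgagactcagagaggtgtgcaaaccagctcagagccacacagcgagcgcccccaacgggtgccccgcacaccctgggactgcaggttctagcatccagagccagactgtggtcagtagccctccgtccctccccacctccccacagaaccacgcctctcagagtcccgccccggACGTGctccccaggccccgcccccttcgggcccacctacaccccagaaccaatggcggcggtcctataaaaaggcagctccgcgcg

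Cytoskeletal and dedifferentiation genes were also lower. Of 43 tested, 21 fell and 3 rose (median -0.31), with 9 far-side genes, against 14.8% lower and 15.4% higher of all genes tested. Tubb6, a beta-tubulin, was 695, 614 and 680 CPM in control, 749, 826 and 853 CPM in FAC and 312, 376 and 367 CPM in Lip-1+FAC (log2 -0.92, SE 0.09, adjusted p = 2.51e-06). Sox9, a bile duct and progenitor factor, was 19.7, 15.3 and 17.3 CPM, then 49.2, 53.6 and 57.5 CPM, then 12.2, 13.4 and 10.4 CPM. Krt8 and Krt18, the keratin pair of hepatocytes, fell by 0.44 and 0.59 as far-side genes. Actb spread from 3327 to 5475 CPM in control and its call (log2 -0.51, adjusted p = 0.0482) was lost in 11 of 20 alternatives, and Vim lost its call (-0.67) in 6. Lgals1 and Spp1 rose by 1.08 (SE 0.22) and 1.31 (SE 0.15), against the direction of the list. Among 21 targets of YAP and SRF, which respond to tension on the cytoskeleton, 11 fell and 3 rose (median -0.60, or -0.39 without control 3). Fhl2 fell from 9.27, 10.5 and 8.17 CPM to 2.77, 3.36 and 2.37 CPM, with 13 to 18 CPM in FAC. Ankrd1 fell by 1.14 (SE 0.26), whereas Ccn1 was not called (0.29, SE 0.12), although 6 of 20 alternatives called it higher, with 0.44 under GC and length offsets.

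The growth factor and immediate early genes that FAC raised did not end as one group. Of 22 EGFR ligands and MAPK feedback inhibitors, 18 were called higher in FAC, against 17.5% of all genes tested. In Lip-1+FAC 6 were called higher and 7 lower, 5 of them far-side, against 15.4% and 14.8% of all genes. Without Lip-1+FAC 1 the number higher was 3. Of 21 AP-1 and immediate early genes, 17 were higher in FAC, and in Lip-1+FAC 8 were higher and 3 lower, with a median near 0 whose sign changed in 14 alternatives. Fos was 16.4, 16.8 and 16.4 CPM in control, 44, 44.1 and 45.3 CPM in FAC and 7.6, 7.72 and 8.84 CPM in Lip-1+FAC (log2 -1.04, SE 0.10). Hbegf, an EGFR ligand, was 2.31, 3.53 and 2.64 CPM, then 6.87, 8.35 and 8.44 CPM, then 1.13, 1.22 and 0.93 CPM. Dusp5 (log2 -0.72, SE 0.16) was below control as well. By contrast Egr1 stayed above control, at 18.8, 19.8 and 20.5 CPM in control, 90.8, 102 and 86.8 CPM in FAC and 42.9, 53.6 and 50.5 CPM in Lip-1+FAC (log2 1.31, SE 0.13), and so did Dusp4 (1.04, SE 0.18). Dusp6 was 136, 106 and 127 CPM in control and 105, 108 and 116 CPM in Lip-1+FAC, and was not called (-0.16, SE 0.12), with 239 to 330 CPM in FAC. Fos and Egr1, both immediate early genes, thus lay on opposite sides of control.

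Genes called in Lip-1+FAC against both other groups and not in FAC against control form the larger set of 1418. Among the rises, Entpd5, an enzyme of the endoplasmic reticulum that hydrolyses nucleoside diphosphates, was 272, 302 and 287 CPM in control, 305, 293 and 297 CPM in FAC and 703, 670 and 723 CPM in Lip-1+FAC (log2 1.29, SE 0.06, adjusted p = 3.29e-11). Ddit4l, an inhibitor of mTOR signalling, was 11.5, 13.1 and 16.1 CPM, then 12.6 to 12.7 CPM, then 39.3, 31.8 and 36.1 CPM. Spp1 (osteopontin) was 34.8, 48.1 and 39.4 CPM in control and 111, 94 and 99.2 CPM in Lip-1+FAC, and 18.75% of its exons overlap another annotated gene. Acaca, the first enzyme of fatty acid synthesis, was 30.5, 35.7 and 34 CPM in control and 82.7, 76.7 and 105 CPM in Lip-1+FAC, and a copy of 99.199% identity covers 6118 of its bases. Among the falls, Sgk1, a kinase of the mTORC2 and glucocorticoid pathways, went from 422, 316 and 307 CPM in control and 260 to 298 CPM in FAC to 85.2, 117 and 108 CPM. Slc38a1, a glutamine transporter, went from 9.74, 6.49 and 7.06 CPM to 1.42, 2.9 and 1.56 CPM, and Smtnl2 from 14.7, 11.5 and 13.2 CPM to 3.53, 4 and 4.23 CPM. In all of these genes the Lip-1+FAC libraries stood apart from both other groups. Errfi1, a cytosolic brake on EGFR, fell from 2092, 2088 and 2010 CPM to 1083, 1161 and 1307 CPM with FAC at 1956 to 2041 CPM. Cdkn1a, the p53 target p21, fell from 380, 317 and 396 CPM to 191, 220 and 175 CPM.

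Several regulators and enzymes of the differentiated hepatocyte fell. Of all genes tested, 15.4% were higher and 14.8% lower. Of 29 hepatocyte transcription factors 15 fell and 2 rose (median -0.42). Coagulation and complement genes fell in 12 of 42 cases and rose in 6, and fatty acid oxidation genes fell in 13 of 40 and rose in 4. The transcription factors called higher were 4 with GC and length offsets and 0 without control 2, Lip-1+FAC 1 or Lip-1+FAC 2. With the offsets the coagulation list had 9 higher and 9 lower, and 11 higher and 9 lower with a replicate block added. Tbx3, a factor of zonation and of the fetal liver, fell from 26.4, 19 and 23 CPM to 7.39, 6.79 and 6.43 CPM, with 4.93 to 7.31 CPM in FAC. Onecut1 (log2 -1.44, SE 0.19) and Ppara (-0.90, SE 0.11) fell and were not called in FAC, and an annotated gene overlaps 52.8% of the Onecut1 exons. Hnf4a, a master regulator of hepatocyte genes, was 410, 428 and 319 CPM in control and 283, 291 and 340 CPM in Lip-1+FAC, and the groups overlapped. Its call (-0.34, adjusted p = 0.0316) was lost in 6 of 20 alternatives. Cebpa (0.17) and Foxa2 (0.25) were not called. With GC and length offsets both were called higher (0.37 and 0.44), and Foxa2 was called higher in 7 of 20 alternatives in all, among them those without control 3 (0.32) and without Lip-1+FAC 3 (0.32). In gluconeogenesis 14 of 21 genes fell and 1 rose (median -0.36), with at most 4 called higher in any alternative. In the urea cycle list 9 of 18 fell and 3 rose (median -0.46), among them Arg1 from 501, 465 and 431 CPM to 176, 245 and 215 CPM and Cps1 from 1742, 1890 and 1454 CPM to 893, 1105 and 1106 CPM. The FAC libraries of Cps1 (785, 806 and 543 CPM) lay below those of Lip-1+FAC, whereas Arg1 libraries of FAC and Lip-1+FAC overlapped. Of 24 bile acid genes 9 rose and 11 fell, with 9 lower without control 2 and 8 lower without Lip-1+FAC 2, each beside 9 higher. The uptake carrier Slc10a1 fell by 0.72 (SE 0.12), and the canalicular exporters Abcc2 and Abcb4 rose by 1.85 and 0.73. Abcb11, the bile salt export pump, was 22.5, 29.3 and 24.4 CPM in control, 14.7, 12.5 and 14.1 CPM in FAC and 37.6, 30.2 and 39.1 CPM in Lip-1+FAC (0.49, adjusted p = 0.0181), and its call was lost in 5 of 20 alternatives.

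Drug-metabolising P450 genes of families 1 to 3 went both ways, 7 of 35 higher and 12 lower, against 15.4% and 14.8% of all genes tested. With GC and length offsets 6 were lower, and without Lip-1+FAC 1 the number higher was 4. Cyp2e1, an enzyme of ethanol and acetone oxidation, was 393, 305 and 306 CPM in control, 443, 388 and 518 CPM in FAC and 129, 142.2 and 155 CPM in Lip-1+FAC, a far-side gene (log2 -1.24, SE 0.13, adjusted p = 2.45e-05). Cyp2a5, which is known to respond to NRF2, rose from 484, 399 and 416 CPM to 1230, 1028 and 1120 CPM, and its counts are uncertain because Cyp2a4 is 98.217% identical. Cyp1a1 rose from 1.15, 1.5 and 0.947 CPM to 7.28, 5.43 and 4.48 CPM, while Cyp1a2 was called lower (-0.37, SE 0.08). Cyp2b10 and Cyp3a11, which FAC lowered, were at 1482, 1604 and 1484 CPM and at 882, 1004 and 1055 CPM in control. Their Lip-1+FAC levels of 1680, 1500 and 1641 CPM and of 1114, 997 and 991 CPM were not called against control. In the acute phase list 16 of 33 genes fell and 5 rose, with Saa2 at 486, 405 and 492 CPM in control, 597, 518 and 807 CPM in FAC and 193, 227 and 184 CPM in Lip-1+FAC. Saa1 is 96.732% identical to Saa2, so reads may be split between them and the counts are uncertain. Crp fell from 425, 384 and 423 CPM to 169, 228 and 200 CPM. Haptoglobin (Hp) went the other way among the far-side genes, at 3789, 4144 and 4398 CPM in control, 2584, 2534 and 2132 CPM in FAC and 5904, 4756 and 4794 CPM in Lip-1+FAC, although its call (0.33, adjusted p = 0.0294) was lost in 4 of 20 alternatives.

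Mitochondrially encoded transcripts were lower in Lip-1+FAC than in control. Their share of gene counts was 1.21%, 0.954% and 1.12% in control and 0.740%, 0.798% and 0.717% in Lip-1+FAC, with no overlap, and 1.15% to 1.23% in FAC. It was as low in MT+FAC, at 0.639%, 0.698% and 0.711%. The difference between Lip-1+FAC and control was -0.342 percentage points (exact two-sided permutation p = 0.1, the smallest that 3 against 3 libraries can give). Reads that map to several places went the same way, 5.78% of listed reads in control and 5.08% in Lip-1+FAC on average. Unmapped reads went from 7.617% to 6.497% and reads assigned to genes from 78.8% to 80.65%, without overlap of libraries. The part of these shares in the mitochondrial difference was not tested. Of 10 mitochondrial mRNAs tested, 8 fell and none rose (median -0.61), with mt-Nd1 at 1273, 988 and 1292 CPM in control and 765, 815 and 648 CPM in Lip-1+FAC (log2 -0.67, SE 0.12, adjusted p = 0.00103). The number that fell was 5 without control 1, control 3, Lip-1+FAC 1 or Lip-1+FAC 3, in a fit of the control and Lip-1+FAC libraries alone and with a replicate block. The calls of mt-Co3, mt-Nd2 and mt-Nd6 were each lost in at least 8 alternatives. Of 76 nuclear genes for subunits of the respiratory chain, 25 fell and none rose (median -0.32), against 14.8% lower of all genes tested. The median was -0.21 without control 3, -0.19 without Lip-1+FAC 3 and -0.17 with GC and length offsets. That count was unsteady, with 12 lower and 2 higher under GC and length offsets, 9 lower in a fit of the control and Lip-1+FAC libraries alone, 7 lower without control 3 and 6 lower without Lip-1+FAC 3. It was higher in others, with 36 lower without control 2, 35 without Lip-1+FAC 1 and 34 with DESeq2. Ndufa4, a subunit that was not called, was at 210, 192 and 257 CPM in control and 239, 215 and 151.7 CPM in Lip-1+FAC, with control 3 the highest and Lip-1+FAC 3 the lowest. These falls were not particular to Lip-1+FAC. In MT+FAC against control, 9 of the 10 mitochondrial mRNAs (median -1.08) and 41 of the 76 nuclear genes (median -0.44) were called lower. Of all genes tested 10.1% were called lower in MT+FAC.

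**Figure D5:**
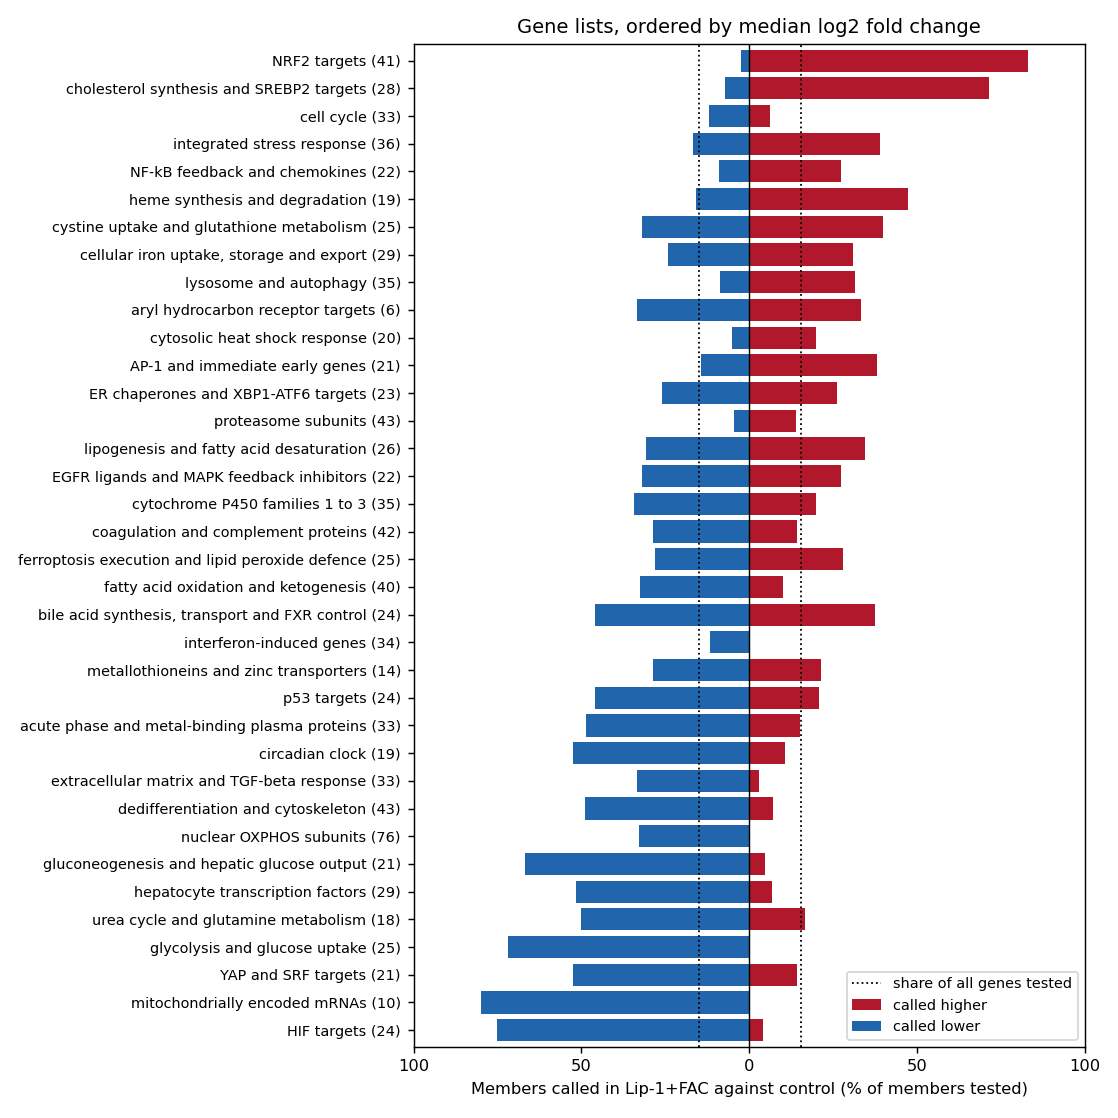
For each gene list, the percentage of its tested members (number in brackets) that were called higher (red, right) or lower (blue, left) in Lip-1+FAC against control, ordered by median log2 fold change. NRF2 and cholesterol lists lead on the right, and HIF, mitochondrial mRNA and glycolysis lists have the longest bars on the left, past the dotted lines that give the 15.4% and 14.8% of all genes tested.

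Cells given Mito-TEMPO before FAC differed from the Lip-1+FAC cells in few genes, some of them in the cholesterol and NRF2 lists. Between them 182 genes were called (1.34% of those tested), 63 higher (0.465%) and 119 lower (0.879%) in MT+FAC. Against control, MT+FAC gave 2684 calls (19.8%), with 9.71% of genes higher and 10.1% lower. Among the far-side genes 15 of the 244 above and 10 of the 234 below control were called between MT+FAC and Lip-1+FAC. By sign alone, MT+FAC lay on the Lip-1+FAC side of control in 239 of the 244 and 232 of the 234. Their median log2 fold changes in MT+FAC against control were 0.27 and -0.39. MT+FAC was called on the opposite side of control in 0 and 1 of them. These values are a description only, since the far-side choice used the Lip-1+FAC libraries and the same control libraries. Of the 28 cholesterol genes 14, and of the 41 NRF2 targets 12, were lower in MT+FAC than in Lip-1+FAC, against 0.879% of all genes. The NRF2 rise itself was shared. Against control, 30 of the 41 NRF2 targets were called higher in MT+FAC (median 0.68) and 34 in Lip-1+FAC (median 0.90). The falls of the HIF and glycolysis lists were shared as well. In MT+FAC against control, 18 of 24 HIF targets (median -0.49) and 14 of 25 glycolysis genes (median -0.35) were called lower, against 10.1% of all genes. Of the cholesterol genes 5 were called higher in MT+FAC (median 0.11), against 9.71% of all genes. Hmgcs1 was 248.6, 239 and 267 CPM in MT+FAC against 375, 382 and 368 CPM in Lip-1+FAC (log2 -0.58, adjusted p = 0.000313), and Insig1 148.9, 131 and 139 CPM against 232, 232 and 251.4 CPM (-0.77). Scd2 was 25.2, 21.1 and 23.3 CPM in MT+FAC, between control and Lip-1+FAC. Slc7a11 was 66, 71.8 and 80.1 CPM in MT+FAC and lower than in Lip-1+FAC (-0.60, adjusted p = 0.00058), as were Srxn1 (-0.43) and Abcc2 (-0.60). Fos (log2 0.63) and Fhl2 (1.21) were higher in MT+FAC. Atoh8 was 10.8, 10.2 and 10.3 CPM in MT+FAC, above each Lip-1+FAC library (0.90, adjusted p = 0.0015) and far below control. No difference was called for Tfrc (-0.20, SE 0.12), Slc40a1 (-0.17, SE 0.05) or Hmox1 (-0.23, SE 0.09), which does not show that they were equal.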

How the data were processed

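Total RNA from 12 libraries was sequenced, per the labels. What the authors deposited are whole read counts for each gene, not normalized, in the layout of STAR, which the submitters' processing notes name together with build GRCm38; version and annotation are not given in the sources used here. The unstranded count column was used. Of 55487 identifiers, 55227 matched GENCODE M21, and 260 did not and held 0.002066% of counts. The 4 lines that name no gene were left out, and the reads assigned to genes were 75.8% to 81.2% of those listed. The file of FAC 2 is marked as combined and holds 52529278 counts.

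Low counts were removed with filterByExpr and libraries scaled by TMM. The test was glmQLFTest (quasi-likelihood) from edgeR 4.0.16, run under R 4.3.3 with 4 group means over all 12 libraries. Adjusted p-values are Benjamini-Hochberg values over 13535 genes. The SE is the absolute log2 fold change divided by the square root of F. On data simulated from these libraries, 51.5% of genes changed by log2 0.5 (13109 genes run) and 70.5% of those changed by log2 1 (13102 genes run) were recovered, with 3.74% and 6.62% of calls false. Each simulation changed 200 genes, and the recovered share is of all 200, with any that the filter removed. The data gave 4089 calls, so these rates need not hold for the comparison itself. Replicates differed by more than sampling noise (chi-square per degree of freedom 8.557 to 22.6). Reads without molecular identifiers are not independent molecules.

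The members, gene lists, markers and the naming rule were chosen with earlier results of these data known. The rule named the 8 largest rises and falls, the 8 far-side genes each way with the largest smaller change, and the 5 largest each way among those not called in FAC (protein-coding, mean CPM at least 5, no overlap of libraries), plus key members of the 36 lists with up to 3 further called members, and the 3 far-side genes just inside and outside 0.05. Others named in the text come from the lists or are said to be chosen after their values were seen. Copies were searched among transcripts with blastn 2.17.0+ at 95% identity. Further named genes also have such copies, among them Ccnb1 (99.223%), Ciart (96.714%), Nr1d2 (96.101%) and mt-Co3 (100%). Promoter windows are from RefSeq. Alternatives changed scaling, filter, test (DESeq2 1.42.0), columns, depth, libraries and offsets for GC content and length. A few genes of the lists, which enter the counts, are not reported here by name.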

Additional observations from a re-analysis of the deposited data

How the results depend on the processing

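The number of genes called against control, 4089, ranged from 3605 to 4389 over the alternatives that kept every Lip-1+FAC and control library and from 3233 to 4180 when 1 library was left out. Far-side genes, 478, ranged from 406 to 536 and from 335 to 434. Requiring a log2 change of 1 or more in size left 553 genes called, 199 higher and 354 lower, 28 far-side genes, 6 above and 22 below control, and 260 genes changed in Lip-1+FAC but not called in FAC. Far-side genes below control, 234, ranged from 153 (without control 2) to 215 when 1 library was left out. Offsets for GC content and length gave 3750 calls, of which 2922 were among the 4089. Under these offsets Hspa4l turned to -0.007 and Nt5c2 to -0.06, and with the replicate block added Hspa4l was -0.006, Nt5c2 -0.059 and Psmb5 0.171. Their cause was not tested. The replicate numbers showed no sign of pairing control with Lip-1+FAC, as deviations of libraries of the same number correlated at -0.056, -0.041 and -0.249. For control 2 and FAC 2 the value was 0.164. Deviations from the mean of 3 libraries offset one another, so these values cannot exclude a pairing. With a replicate block 3961 genes were called and 467 were far-side. Of 216 named genes called, 170 lost their call in none of the alternatives that tested them, 157 of which were tested in all 20, and 46 lost it in at least 1. The share of higher calls was 50.89%, and 46% to 53.83% under other settings. Ccnb1 (log2 2.61) was 3.65 without control 1, and Lamb1 (-1.66) was -2.43 without Lip-1+FAC 3 and lost its call without control 1 (-1.28). Thinning every library to the depth of the shallowest gave 2.54 and -1.68 for these genes, 4022 calls in all and 463 far-side genes.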

Other observations

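Several lists that the comparisons above do not describe also moved. In the circadian clock list 10 of 19 genes fell and 2 rose (median -0.21), against 14.8% and 15.4% of all genes tested. The number lower was 5 without control 1 and 6 without Lip-1+FAC 2. Among those that fell was Per2, from 18.8, 18 and 15.1 CPM in control to 8.48, 9.69 and 9.6 CPM in Lip-1+FAC, with FAC at 14.1 to 19.2 CPM. Nr1d2, a repressor of the clock, rose from 76.9, 78 and 76.2 CPM to 157, 149.3 and 141.05 CPM, and Ciart, another repressor, was a far-side gene at 15.8, 11.4 and 12.2 CPM in control, 23.4, 21.4 and 17.9 CPM in FAC and 6.8, 6.26 and 7.11 CPM in Lip-1+FAC. Of 24 p53 targets 11 fell and 5 rose. Mdm2, which degrades p53, rose from 139, 135 and 140 CPM to 209, 187 and 189 CPM, so that it and Cdkn1a, a target of the same factor, lay on opposite sides of control. Btg2 fell from 190, 174 and 191 CPM to 104, 114 and 109 CPM.

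In the integrated stress response, by which cells slow translation and raise amino acid genes, 14 of 36 genes rose and 6 fell. Ddit3 rose by 0.59 (SE 0.12) and Trib3 by 0.38 (SE 0.06), with FAC values of 1.07 and 0.45 against the same control. Ddit4, an inhibitor of mTOR that hypoxia and glucocorticoids also raise, fell from 31.4, 23.9 and 24.9 CPM to 8.04, 8.44 and 7.95 CPM and was not called in FAC. Lysosome and autophagy genes rose in 11 of 35 cases and fell in 3, or 1 without control 1, without control 2 or with GC and length offsets, against 15.4% and 14.8% of all genes tested. Sqstm1, an autophagy receptor and NRF2 target, rose from 2120, 2248 and 2381 CPM to 5658, 5399 and 5400 CPM, above the 3856 to 4424 CPM of FAC. Ctsl, a lysosomal protease, rose by 0.56 (SE 0.05), although 26.8% of its exons overlap another gene. With GC and length offsets 3 interferon-induced genes were called higher, and without control 2 the proteasome subunits called lower were 5. By the fit used throughout, interferon-induced genes were called lower in 4 of 34 cases and higher in none, and proteasome subunits higher in 6 of 43 and lower in 2, both at or under the share of all genes tested. Metallothionein Mt1 was 2123, 1598 and 2361 CPM in control, 3329, 3577 and 3545 CPM in FAC and 1442, 1453 and 1022 CPM in Lip-1+FAC. Its call (log2 -0.63, adjusted p = 0.0105) was lost in a fit of the control and Lip-1+FAC libraries alone.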
